A study of Mus musculus with 21 samples.

Results

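The last step of myeloid differentiation sampled in mouse bone marrow leads from granulocyte-macrophage progenitors (GMP) to cells that carry both Mac1 and Gr1 (Mac1Gr1). It was followed by setting the 3 arrays labelled Mac1Gr1 against the 3 arrays labelled GMP, 6 of the 21 arrays in the series, with each array assigned to its fraction by its label. The series profiled 7 sorted fractions with 3 arrays each, namely multipotent KLS cells, the erythroid fractions PreMegE, CFUe and Ter119, and the myeloid fractions PreGM, GMP and Mac1Gr1. Cells of both fractions came from bone marrow of C57BL/6 mice, and the labels list neither a treatment nor a modified allele, and give no age. The label describes GMP as lineage negative, c-Kit positive, Sca1 positive, CD150 negative cells with Fc gamma receptor on the surface, where the lineage antigens were B220, CD3, CD4, CD8, CD41, Mac1, Gr1 and Ter119. GMP are commonly sorted as Sca1 negative, and whether the label gives the Sca1 gate as used was not settled here. Mac1Gr1 cells are described by those 2 antigens alone, and the label names no antibody that would remove lymphoid or erythroid cells. Nothing in the labels says whether the 3 arrays of a fraction came from separate mice, so the spread between them may be technical. The p-values and SEs use a spread pooled over the arrays of all 7 fractions, not that of these 6 arrays alone.

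GMP are dividing cells that give rise to neutrophils and monocytes. As a neutrophil matures it fills its granules in turn: the primary (azurophil) granules, with myeloperoxidase and serine proteases, are made at the promyelocyte stage, the secondary (specific) granules, with lactoferrin, at the myelocyte stage, and the tertiary (gelatinase) granules and secretory vesicles after cell division has ended. The mature cell has a lobed nucleus, few mitochondria and little protein synthesis, lives on glycolysis, and carries the receptors that let it find, engulf and kill microbes.

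Levels are given as the log2 signal of a probe minus the 75th percentile of its array, so that 0 is the brightness of a probe at that percentile, and a change is the Mac1Gr1 level minus the GMP level on the log2 scale. A gene is represented by 1 probe and is called where the limma fit of all 21 arrays gave at least a 2-fold change at an adjusted p under 0.05. Between 59.8% and 76.5% of probes were well above background on the 6 arrays. Arrays of one fraction correlated at 0.981 or more across probes and arrays of different fractions at 0.767 to 0.785. No slide held arrays of both fractions, so slide and fraction were not compared within a slide.

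Of 29532 probes tested, 8589 (29.1%) were called higher and 8164 (27.6%) lower in Mac1Gr1. Counted as genes, 3852 of 14315 (26.9%) rose and 4403 (30.8%) fell, and the arrays of the 2 fractions did not overlap for 80.2% of genes. These shares are the background against which each gene group below should be read. At this scaling 292 genes rose by at least 32-fold and 82 fell by as much, against 110 and 1181 on the spike-in scale described next. Of the genes that rose, 302 were not well above background on any GMP array, and of those that fell, 549 were not well above background on any Mac1Gr1 array; for these the fold is given as a lower bound.

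The calls depend on what the arrays are scaled to. The RNA spike-in added to each fixed amount of total RNA was at 2.30, 3.05 and 3.19 in the GMP arrays and at 4.80, 4.81 and 5.02 in the Mac1Gr1 arrays, relative to the 75th percentile. Scaling to the spike-in therefore lowered each change given below by 2.03 and moved the median over all genes from 0.06 to -1.97. Under it 857 genes (5.99%) were higher, all of them also called higher above, and 10347 (72.3%) were lower, among them 104 that had been called higher. A rise of less than 2.03 below is thus a fall on the spike-in scale, the fall of a gene is the deeper by the same amount, and the distance of a gene group from the median of all genes is the same on both scales. In bulk RNA, fewer cells of a type and less RNA per cell cannot be told apart.

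Of the genes for sorting and progenitor antigens, 9 were tested, of which 4 rose, 2 fell and 3 were not called, and not all went the way of the labels. Itgam, the alpha chain of Mac1, was at -0.56, -0.84 and -0.59 in GMP and 5.41, 5.04 and 5.04 in Mac1Gr1, a change of 5.83 ± 0.38 (SE, n = 3 and 3; limma adjusted p = 2.85e-10). Cd34, a progenitor antigen that the label does not list, was at 5.75, 5.88 and 5.89 in GMP and -0.54, 0.23 and 0.34 in Mac1Gr1, a change of -5.83 ± 0.72 (adjusted p = 1.10e-06). The arrays of the 2 fractions lay far apart for both genes. Ly6a, which encodes Sca1, rose by 3.28, so that it was lower in GMP although the label gives GMP as Sca1 positive, and Ly6c2, one of the antigens bound by Gr1 antibodies, had a change of 0.996 that was not called. Of the genes for Fc gamma receptors, Fcgr3 rose by 1.24 and Fcgr2b was not called (-0.73). Kit and Ly6g were not analysed here.

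Many genes that mark other blood cells were also higher in the Mac1Gr1 arrays, though not in every set. A summed level below is the log2 of the summed unlogged levels of a list, so its brightest members weigh most. All 10 tested B cell markers rose, with a median change of 4.44 and a summed level of 3.19 to 3.40 in GMP and 5.46 to 6.23 in Mac1Gr1. Ms4a1, which encodes CD20, was at -7.51, -7.98 and -7.50 in GMP and 2.28, 3.22 and 3.29 in Mac1Gr1, and Vpreb3, another of these markers, was at -2.61, -3.00 and -2.63 in GMP and 3.49, 4.17 and 4.30 in Mac1Gr1. Neither gene belongs to a neutrophil, and both genes were measured on all 3 Mac1Gr1 arrays. The macrophage markers rose for 13 of 14 genes, with a summed level of 3.21 to 3.43 in GMP and 5.50 to 5.86 in Mac1Gr1, and included the complement genes C1qa (3.98), C1qb (2.62) and C1qc (4.96). The dendritic cell markers rose for 7 of 10, the T and NK cell markers for 7 of 13, and the erythroid markers for 8 of 12, with the alpha globin gene Hba-a1 at -1.76, -1.60 and -1.40 in GMP and 2.73, 3.10 and 3.24 in Mac1Gr1. Of the other sets, 6 of 15 monocyte markers rose and 4 fell, 4 of 9 eosinophil markers rose and 3 fell, 2 of 11 mast cell and basophil markers rose and 4 fell, and 3 of 12 megakaryocyte markers rose and 2 fell. Summed levels in GMP and in Mac1Gr1 were 8.62 to 8.88 and 9.28 to 9.56 for monocyte markers. They were 5.77 to 5.96 and 7.53 to 7.72 for mast cell and basophil markers, and 1.64 to 1.66 and 4.16 to 4.32 for megakaryocyte markers. The median change was -0.64 for mast cell and basophil markers, against the rise of their sum, and 0.61 for megakaryocyte markers. Summed levels of the dendritic, T and NK cell and erythroid lists were also higher in Mac1Gr1, and the eosinophil sums overlapped. On the spike-in scale the medians of the monocyte, eosinophil, megakaryocyte, T and NK cell and erythroid lists were negative, and those of the B cell, macrophage and dendritic cell lists stayed positive. The part that these cells had in the results below was not tested.

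**Figure D1:**
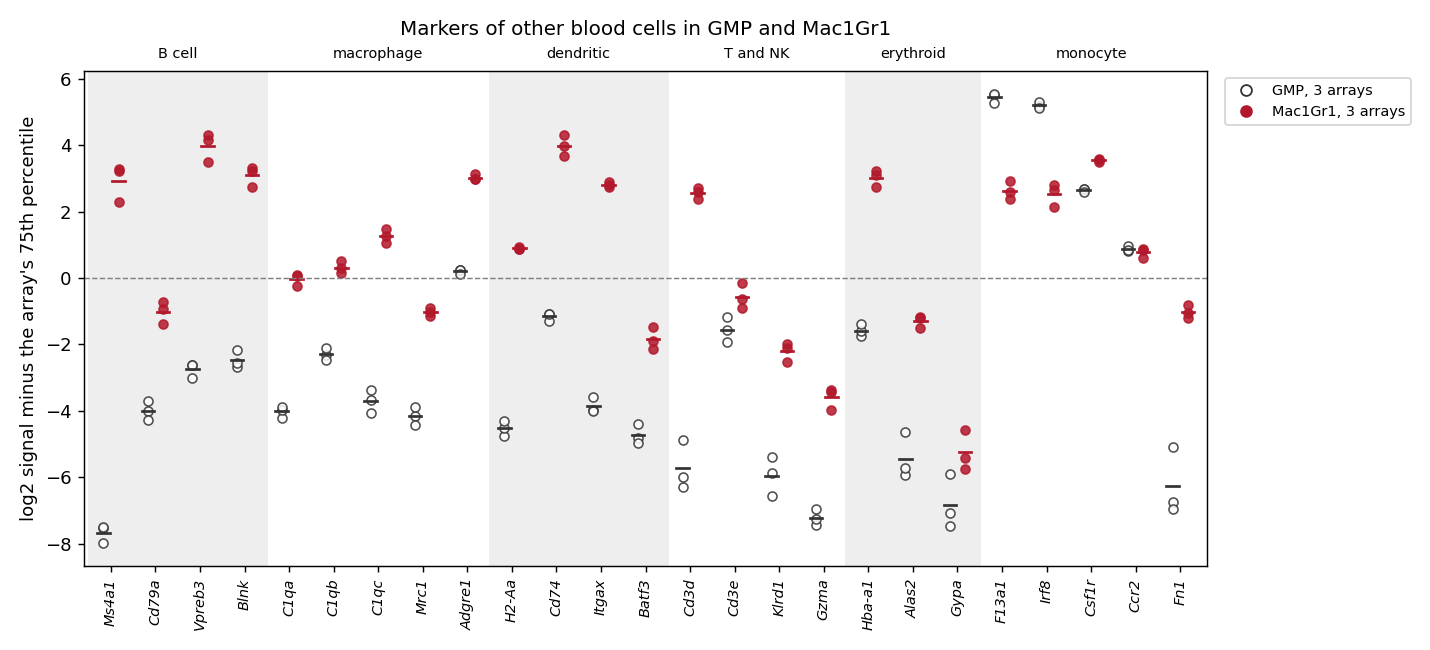
Levels of marker genes of other blood cells on each GMP array (open circles) and each Mac1Gr1 array (filled circles), as log2 signal relative to the array's 75th percentile, grouped by cell type; short bars are the means of 3 arrays. The B cell and macrophage markers lie higher on all 3 Mac1Gr1 arrays. Of the monocyte markers F13a1 and Irf8 lie lower, while in the whole monocyte list 6 of 15 genes rose and 4 fell.

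The granule genes split by the order in which granules are made: primary granule genes fell and secondary and tertiary granule genes rose. The primary granule list of 14 genes is broader than granule proteins. It also holds Gstm1, Igsf6 and Calr, which is counted again below with the endoplasmic reticulum. Of the 14 genes, 10 fell, 1 rose and 3 were not called, with a median change of -4.40. Elane, neutrophil elastase, was at 6.58, 6.63 and 6.41 in GMP and -0.69, -0.54 and -0.02 in Mac1Gr1, which is 124-fold lower (log2 change -6.96 ± 0.52; adjusted p = 1.66e-09). Mpo, myeloperoxidase, was at 8.98, 9.34 and 9.26 in GMP and 4.88, 5.32 and 5.47 in Mac1Gr1, a change of -3.97 ± 0.60 (adjusted p = 1.71e-05). The fall of Mpo left it well above the 75th percentile of the Mac1Gr1 arrays, whereas Elane ended near that percentile. Proteinase 3 (Prtn3) was 109-fold lower, cathepsin G (Ctsg) 47.8-fold lower and the protease inhibitor cystatin F (Cst7) 95.0-fold lower. Ms4a3, a surface protein of granulocyte-committed progenitors, changed by -5.31, and Nkg7 by -6.05. The exceptions were Ctsc (-0.99), the protease that activates the serine proteases, Srgn (-0.28), the proteoglycan on which granule proteins are packed, and Serpinb1a (0.68), an elastase inhibitor, none of which was called, and Igsf6, which rose by 1.40 and lay lower on the spike-in scale (-0.63).

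All 13 tested secondary granule genes rose, with a median change of 9.08 (7.05 on the spike-in scale, where each of the changes was still above 0). Ltf, which encodes the iron-binding lactoferrin, was at -3.19, -4.13 and -4.00 in GMP and 9.72, 9.72 and 9.80 in Mac1Gr1, a change of 13.52 ± 0.81 (adjusted p = 9.18e-11) and the largest rise among genes measured on all 6 arrays. Camp, the cathelicidin antimicrobial peptide, was at 1.17, 0.05 and 0.18 in GMP and 9.07, 9.08 and 9.26 in Mac1Gr1, a change of 8.67 ± 0.70 (adjusted p = 4.93e-09). The lowest Mac1Gr1 array lay far above the highest GMP array for both. Ngp, neutrophilic granule protein, rose by 10.60, Lcn2, which binds bacterial siderophores, by 9.08, Cd177, the partner of proteinase 3 on the neutrophil surface, by 9.56, Lyz2, lysozyme, by 6.44 and the peptidoglycan-binding Pglyrp1 by 4.47. Haptoglobin (Hp) had the smallest rise (2.46), from levels that were already 6.22 ± 0.15 (SD, n = 3) in GMP. Ceacam10 was not well above background on any GMP array and was at least 1014-fold higher.

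Most genes of the tertiary granules and secretory vesicles rose as well. Of 14 genes, 11 rose and 3 were not called, with a median change of 9.88, or 9.07 with dim genes held at their bound. Mmp9, gelatinase B, was at -7.13, -7.54 and -4.38 in GMP and 7.62, 7.80 and 7.80 in Mac1Gr1, and 1 of the 3 GMP arrays measured it above background (change 14.09 ± 0.64; adjusted p = 2.93e-12). Mmp8, neutrophil collagenase, rose by 11.64, the membrane protease Mmp25 by at least 478-fold and the sheddase Adam8 by 10.58. Cd14, the lipopolysaccharide co-receptor, the lectin Fcnb and cathepsin B (Ctsb) were not called, with changes of 0.16, 0.20 and 0.05. Fcnb was at 1.92, 1.62 and 1.48 in GMP and 1.74, 1.90 and 1.99 in Mac1Gr1, so its ranges touched, and the S100 partners of the secondary granule genes were likewise expressed before the step. S100a8 was at 7.10, 6.88 and 6.88 in GMP and 9.95, 9.99 and 10.12 in Mac1Gr1 and S100a9 at 7.27, 6.88 and 6.78 in GMP and 9.97, 10.05 and 10.26 in Mac1Gr1, which form the cytosolic calprotectin of neutrophils and rose by 3.07 and 3.11. S100a6 rose by 9.44, S100a4 by 3.75 and S100a11 by 3.37, while S100a1 and S100a10 fell (-2.48 and -1.42). The stefin A genes encode cysteine protease inhibitors. No GMP array was well above background for Stfa2l1 and Stfa2: Stfa2l1 was at least 4023-fold higher and Stfa2 at least 2002-fold higher. Stfa genes are near-identical copies, and their probes may read each other's transcripts.

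**Figure D2:**
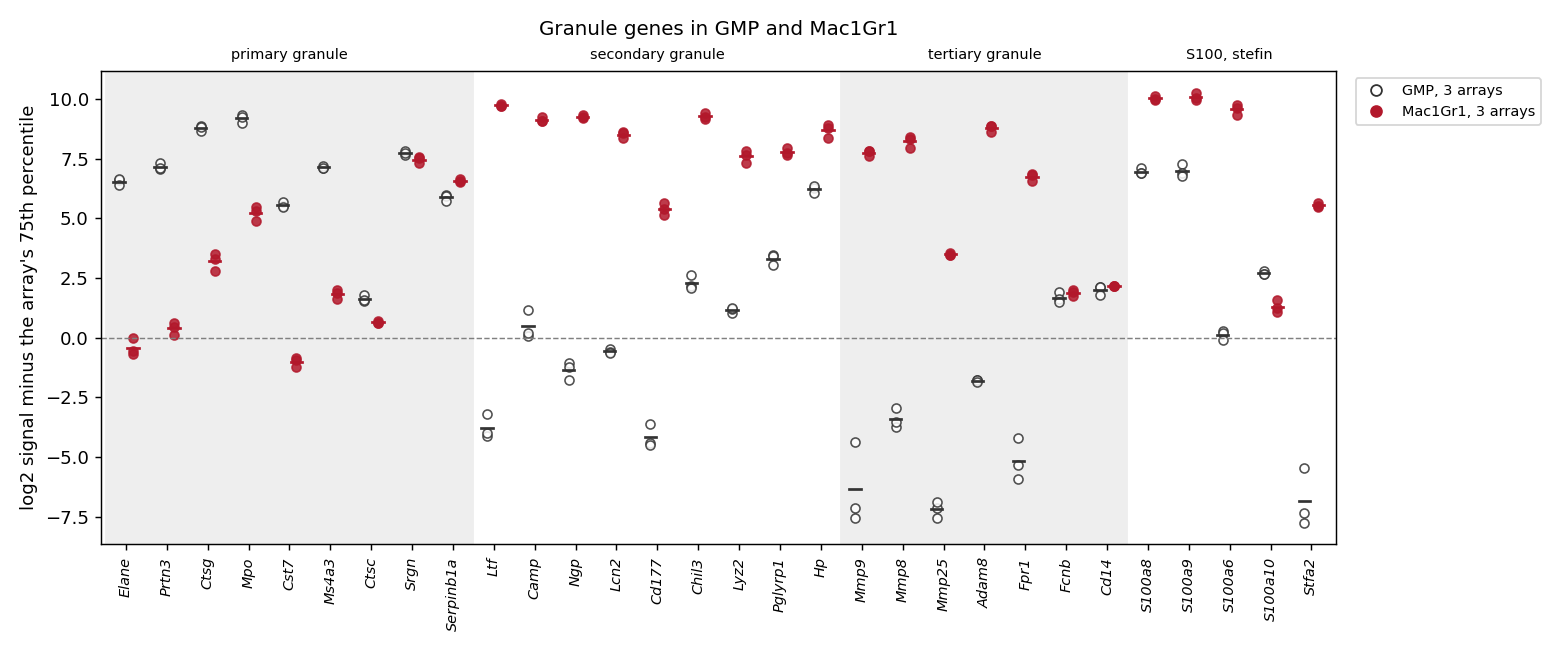
Levels of granule and S100 or stefin genes on each GMP array (open circles) and each Mac1Gr1 array (filled circles), as log2 signal relative to the array's 75th percentile, ordered by granule type; short bars are the means of 3 arrays. Primary granule genes such as Elane lie lower in Mac1Gr1, and the secondary granule genes lie higher; the dashed line marks 0.

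Promoters of the granule genes are shown for the 3 falling protease and peroxidase genes and for 1 rising gene that hold the same PU.1 core, since PU.1 (Spi1) is a regulator of both sets. PU.1 is an ETS factor, and the core searched was GAGGAAGT on either strand. It was found in 4 of 14 (28.6%) promoters of the primary granule list. It was also in 1 of 13 (7.69%) secondary and 1 of 12 (8.33%) tertiary granule promoters, and in 3.20% of the 32851 promoters in the RefSeq table. Each window runs from 250 bases before to 50 bases after the annotated start, 5′ to 3′ as the table gives it, with capitals marking this core and CCAAT on either strand.
Elane, GRCm38.p6, chr10:79886062-79886361, plus strand: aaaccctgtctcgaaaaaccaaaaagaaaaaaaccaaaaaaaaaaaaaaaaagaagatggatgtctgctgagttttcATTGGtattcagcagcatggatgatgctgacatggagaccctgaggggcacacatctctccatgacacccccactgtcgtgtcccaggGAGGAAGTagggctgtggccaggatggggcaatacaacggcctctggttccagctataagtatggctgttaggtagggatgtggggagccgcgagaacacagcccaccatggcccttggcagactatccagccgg
Prtn3, GRCm38.p6, chr10:79879417-79879716, plus strand: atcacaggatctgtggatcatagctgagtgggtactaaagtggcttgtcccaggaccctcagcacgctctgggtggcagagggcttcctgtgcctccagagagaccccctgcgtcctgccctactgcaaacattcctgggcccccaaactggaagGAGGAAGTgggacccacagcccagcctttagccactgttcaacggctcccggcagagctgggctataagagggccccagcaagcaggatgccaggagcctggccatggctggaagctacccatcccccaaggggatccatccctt
Mpo, GRCm38.p6, chr11:87793534-87793833, plus strand: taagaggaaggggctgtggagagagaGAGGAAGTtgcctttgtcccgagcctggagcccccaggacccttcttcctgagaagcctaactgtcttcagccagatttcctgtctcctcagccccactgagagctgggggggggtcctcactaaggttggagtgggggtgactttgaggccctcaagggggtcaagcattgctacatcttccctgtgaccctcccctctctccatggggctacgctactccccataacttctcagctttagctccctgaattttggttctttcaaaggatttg
Mmp8, GRCm38.p6, chr9:7558179-7558478, plus strand: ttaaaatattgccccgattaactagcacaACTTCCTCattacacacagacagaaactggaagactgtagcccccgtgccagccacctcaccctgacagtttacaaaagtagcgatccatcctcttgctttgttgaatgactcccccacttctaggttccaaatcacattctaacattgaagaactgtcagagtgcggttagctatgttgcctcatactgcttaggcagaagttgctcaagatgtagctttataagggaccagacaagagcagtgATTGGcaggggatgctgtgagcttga
Elane and Prtn3 are neighbours on chromosome 10 and carry the core at similar distances before the start, and both fell, whereas Mmp8 carries it on the other strand and rose. C/EBP letters (TTGCGCAA, TTGCAAT or ATTGCAA on either strand, the last pair being 1 site read on both strands) were in 0 of the primary, secondary and tertiary granule windows and in 2.40% of all promoters. A match describes the letters in the window and shows no binding.

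Genes that set up killing and signalling rose with the late granules. The phagocyte NADPH oxidase makes superoxide, and 6 of 7 of its genes rose, among them Cybb (3.76) for the catalytic chain, Cyba (2.61) for its partner, the cytosolic subunits Ncf1 (3.90) and Ncf4 (2.86), and the GTPase Rac2 (2.58); Rac1 was not called (0.18). Cybb was at 1.02, 0.70 and 0.96 in GMP and 4.71, 4.64 and 4.60 in Mac1Gr1 (change 3.76 ± 0.40; adjusted p = 1.75e-07). On the spike-in scale each of the called changes stayed above 0, and the median was 0.83. Only 2 of the 7 genes were still called higher on that scale, and Rac1 was called lower.

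Among genes for lipid mediators, 9 of 16 rose and 1 fell (median 2.41, 0.37 on the spike-in scale). Alox5, 5-lipoxygenase, was at 0.73, 0.67 and 0.54 in GMP and 6.68, 6.80 and 6.74 in Mac1Gr1, a change of 6.09 ± 0.25 (adjusted p = 6.73e-13), and its activating protein Alox5ap rose by 2.54. Lta4h, which carries the product on to leukotriene B4, fell (-1.21), and the leukotriene B4 receptor Ltb4r1 rose by 2.93. The inducible cyclooxygenase Ptgs2 rose by 4.76 and its constitutive relative Ptgs1 was not called (1.04). Pla2g7, which breaks down platelet-activating factor, rose by 7.44 with 1 GMP array above background.

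Most receptors for chemoattractants rose. Of 16 chemoattractant receptors, 12 rose and 4 were not called (median 3.09, 1.06 on the spike-in scale). Cxcr2, the main receptor for neutrophil chemokines, was at -1.80, -1.60 and -1.56 in GMP and 6.39, 6.97 and 7.02 in Mac1Gr1, a change of 8.45 ± 0.49 (adjusted p = 5.48e-11). Fpr2, a formyl peptide receptor, was at -7.07, -5.67 and -7.54 in GMP and 6.88, 7.03 and 7.15 in Mac1Gr1, no GMP array was well above background, and it was at least 5533-fold higher. Ccr1 was at least 54.7-fold and the complement receptor C5ar1 at least 67.6-fold higher, and Cxcr4, which holds neutrophils in the marrow, rose by 2.51. Ccr2 and Cx3cr1, receptors of monocytes, had changes of -0.10 and 0.29, and neither was called. Among chemokine ligands 4 of 14 rose and 4 fell, with no common direction. Cxcl10 was the deepest fall (-6.02 ± 0.77), Cxcl1 was at least 4.40-fold lower, and Ccl6 had the largest rise (7.45).

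Adhesion genes differed by chain. The beta 2 integrin Itgb2 rose by 5.58 with its alpha chains Itgam, Itgax (6.66) and Itgal (2.38), while the beta 1 chain Itgb1 fell (-1.97) with Itga5 (-2.41) and Itga6 (-2.16), and Itga4 was not called (0.14). The selectin ligand Selplg rose by 2.80, and Icam1 fell (-3.06). In all, 11 of 20 adhesion genes rose and 5 fell (median 2.02, but -0.01 on the spike-in scale). Itgax also marks dendritic cells, whose marker list rose.

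The actin and motility genes rose broadly, 31 of 37 of them with 0 called lower (median 1.94), although on the spike-in scale the median was -0.09 and 5 were lower. Large rises were in the Src family kinase Fgr (9.05), which signals from integrins and Fc receptors, and in the actin-binding proteins Lsp1 (6.45), Gsn (5.73) and Capg (3.81). Fgr was at -4.07, -4.57 and -3.47 in GMP and 5.03, 5.06 and 4.96 in Mac1Gr1 (adjusted p = 3.66e-14). The Arp2/3 subunits that nucleate branched actin did not all move alike: Arpc5 rose by 3.52, Arpc1b by 1.31, Arpc2 by 1.27 and Arpc3 by 1.18, and Arpc4 was not called (0.78).

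Most sensing genes rose. Of 31 genes of pattern recognition, 24 rose and 2 fell (median 2.37, 0.33 on the spike-in scale, where 11 were higher and 7 lower). The largest rise was in the cytokine gene Il1b, at -1.53, -1.86 and -1.73 in GMP and 6.59, 6.34 and 6.31 in Mac1Gr1, a change of 8.12 ± 0.70 (adjusted p = 1.18e-08). The Toll-like receptors Tlr1, Tlr2, Tlr4, Tlr6, Tlr7, Tlr8 and Tlr9 all rose, Tlr1, Tlr2 and Tlr9 by less than the spike-in shift, with Tlr4 and its partner Ly96 at 2.72 and 3.66 and Tlr2 at 1.40, and the lectins Clec4d (5.23) and Clec4e (2.61) and the amplifying receptor Trem1 (4.92) rose too. The inhibitors of NF-kappaB signalling Tnfaip3 and Nfkbia fell (-3.31 and -1.23), and the inflammasome genes Casp1 and Pycard were not called (0.33 and -0.67), beside rises of Nlrp3 (2.37) and Nlrp12 (6.13).

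The Fc and paired receptors had the highest median outside the granule lists (4.70, 2.67 on the spike-in scale), with 20 of 23 genes up and 0 down. Pirb, an inhibitory receptor for MHC class I, was at -1.60, -1.40 and -1.43 in GMP and 8.94, 9.02 and 8.95 in Mac1Gr1, a change of 10.45 ± 0.36 (adjusted p = 1.04e-13). Its relatives Lilrb4a (7.88), Pilra (7.28) and Cd300lf (9.95), which carry inhibitory motifs, and the activating Pilrb1 (4.70), Pilrb2 (6.03) and Fcgr4 (5.89) all rose, as did the adaptors they signal through, Tyrobp (3.39) and Fcer1g (3.51). Paired receptors come in clusters of similar genes, so a probe may read more than 1 member. The phosphatase Ptpn6, which inhibitory receptors recruit, rose by 2.44, and Siglecf, an eosinophil receptor, was not called (-0.67).

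Among cytokine receptors 18 of 31 rose, 2 fell and 11 were not called (median 1.72, but -0.31 on the spike-in scale). Csf3r, the receptor of the granulocyte growth factor G-CSF, was at 1.47, 1.34 and 1.22 in GMP and 5.96, 5.66 and 5.66 in Mac1Gr1, a change of 4.42 ± 0.31 (adjusted p = 6.22e-10), and Csf1r, that of the monocyte factor M-CSF, was not called (0.88). In the interleukin 1 system the signalling receptor Il1r1 fell (-2.07), and the decoy receptor Il1r2 and the antagonist Il1rn rose by 7.93 and 9.77. Il7r, a lymphoid receptor, was at least 17.9-fold higher beside the rise of B cell markers. Downstream, Stat3 (1.94) and Socs3 (2.67), which carry and end G-CSF signals, rose, and Stat5a fell (-1.25) while Stat5b rose (1.69).

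Interferon-stimulated genes were higher for 30 of 37, with 3 lower (median 2.45, 0.42 on the spike-in scale). The antiviral effector Ifit3 was at -6.07, -6.09 and -4.97 in GMP and 3.17, 3.19 and 3.08 in Mac1Gr1, measured on 1 GMP array (change 8.86 ± 0.27; adjusted p = 2.93e-14). Ifitm6 rose by 9.52, the oligoadenylate synthetases Oas2 and Oas3 by 6.37 and 6.40, and the factors Irf7 and Irf9 by 5.09 and 2.68. Cxcl10, Gbp3 and Bst2 went the other way (-6.02, -3.36 and -2.00), and Ifnlr1, a receptor chain for lambda interferons, was at least 1454-fold higher. Of 18 MHC genes, 10 rose and 1 fell, and the median of 1.47 became -0.56 on the spike-in scale. The class II genes H2-Aa, H2-Ab1, Cd74 and their regulator Ciita rose by 5.41, 2.76, 5.14 and 4.74, and the class I genes B2m and H2-K1 were not called (0.98 and 0.32). H2-Aa was at -4.76, -4.50 and -4.29 in GMP and 0.88, 0.86 and 0.94 in Mac1Gr1; the B cell and macrophage markers, which class II genes accompany in marrow, rose in the same arrays, and their part in these rises was not tested.

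The myeloid regulators did not move as a block. Cebpa, the factor that commits cells to the granulocyte lineage, was at 2.57, 2.61 and 2.37 in GMP and 0.83, 1.02 and 0.79 in Mac1Gr1, a change of -1.64 ± 0.31 (adjusted p = 1.33e-04), while the later family members Cebpb and Cebpd rose by 2.15 and 3.12; Cebpe was not analysed here. Spi1, which encodes PU.1, was at 0.66, 0.94 and 0.52 in GMP and 2.53, 2.68 and 2.58 in Mac1Gr1 and rose by 1.89 ± 0.36 (adjusted p = 1.43e-04), a rise that is -0.14 on the spike-in scale. Irf8, the monocyte-promoting factor, and Gfi1, its opponent in the neutrophil branch, both fell (-2.66 and -2.05). Bcl6, a repressor that is high in mature neutrophils, was at 0.66, 0.39 and 0.38 in GMP and 5.50, 5.66 and 5.72 in Mac1Gr1, a change of 5.15 ± 0.25 (adjusted p = 6.23e-12). Klf5 rose by 5.07, Irf7 by 5.09, Fosl2 by 3.84 and Rxra by 2.95, and Rara, the retinoic acid receptor, was at least 20.7-fold higher. Klf4 and Klf2 were not called (0.01 and 0.58), and Vdr, the vitamin D receptor, was at least 12.6-fold lower. Of 40 myeloid factors outside the C/EBP family, 27 rose and 7 fell (median 1.73, but -0.30 on the spike-in scale).

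Progenitor factors fell for 17 of 31, with 8 higher (median -1.21). Hoxa9, at 0.48, 0.63 and 0.32 in GMP and -5.37, -4.73 and -4.28 in Mac1Gr1, was measured on 1 Mac1Gr1 array, and its neighbour Hoxa7 fell (-4.36). Other falls were in Myb (-2.80), Meis1 (-2.09), Gata2 (-2.18), Bmi1 (-2.85), Cdk6 (-2.93) and Sox4 (-2.06). Id2, an inhibitor of E proteins, rose by 4.18, and Erg, which is also expressed outside the myeloid lineage, rose by 1.83. The growth regulator Myc was at 3.02, 3.07 and 3.07 in GMP and -2.20, -1.63 and -1.81 in Mac1Gr1, a change of -4.93 ± 0.31 (adjusted p = 1.60e-10), and Mxd1, which takes its place on MAX in cells that stop dividing, was at 0.90, 0.75 and 0.87 in GMP and 6.60, 6.86 and 6.77 in Mac1Gr1, a change of 5.91 ± 0.18 (adjusted p = 3.28e-14). The partner Max rose by 2.50 and Mxi1 by 1.63, the relatives Mnt, Mga and Mlx were not called, and the median of the 13 genes (0.49) was -1.54 on the spike-in scale.

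**Figure D3:**
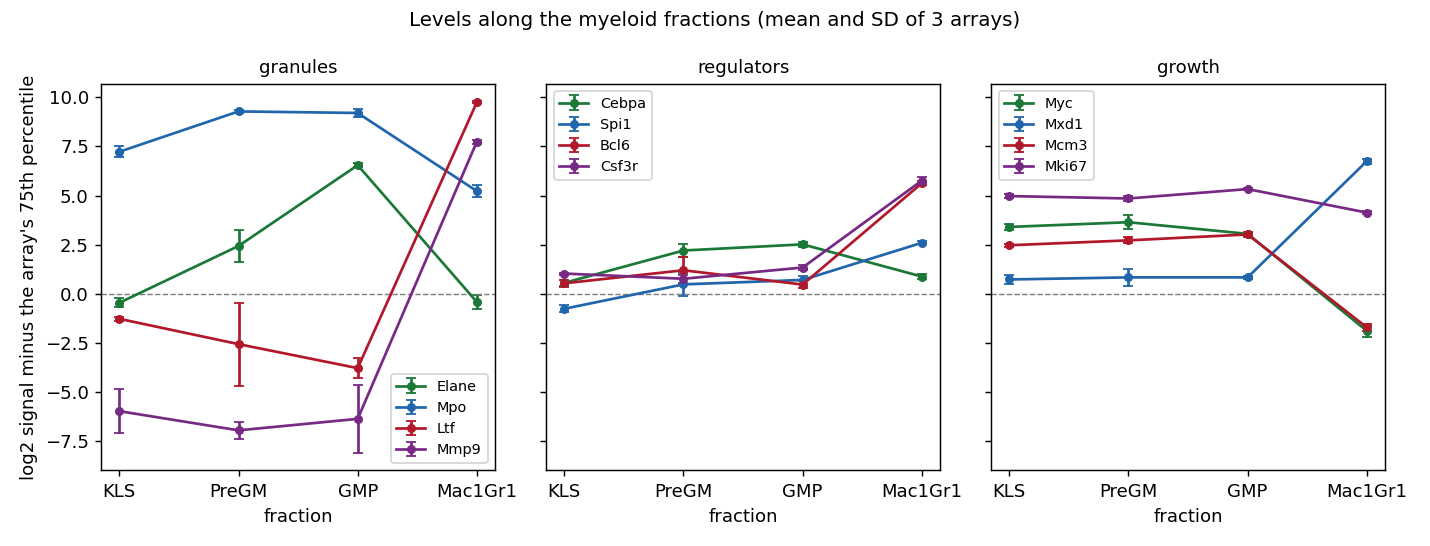
Mean level of 12 genes across the myeloid fractions KLS, PreGM, GMP and Mac1Gr1, as log2 signal relative to the array's 75th percentile, with error bars of 1 SD over 3 arrays. Ltf and Mmp9 stay low up to GMP and rise at the last step, Elane rises to GMP and then falls, and Myc and Mcm3 fall at the last step.

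The machinery of DNA replication was almost wholly lower. Of 44 replication genes 43 fell, and Rfc2, a clamp loader subunit, was not called (-0.25); the median was -3.41. Mcm3, a subunit of the replicative helicase, was at 2.93, 3.15 and 2.99 in GMP and -1.65, -1.56 and -1.91 in Mac1Gr1, a change of -4.72 ± 0.16 (adjusted p = 7.02e-14), and the other helicase subunits Mcm2 (-4.11), Mcm4 (-3.15), Mcm5 (-3.88), Mcm6 (-4.11) and Mcm7 (-3.77) fell with it. The clamp Pcna (-3.09) and the licensing factors Cdt1 (-3.30) and Cdc6 (-3.88) fell, and Orc1 was at least 11.1-fold lower. DNA repair genes fell for 29 of 34 with 0 higher (median -2.77), among them Brca1 (-3.42) and the mismatch repair gene Msh6 (-3.07), and Xpc, of nucleotide excision repair, was not called (0.32).

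Mitosis genes fell by less. Of 57 genes 49 fell, 1 rose and 7 were not called, with a median of -1.84. Cdk1, the mitotic kinase, was at 2.18, 2.13 and 1.90 in GMP and -0.56, -0.50 and -0.46 in Mac1Gr1, a change of -2.58 ± 0.21 (adjusted p = 6.61e-09). Mki67, the proliferation antigen Ki-67, was at 5.32, 5.36 and 5.30 in GMP and 4.12, 4.05 and 4.22 in Mac1Gr1, a change of -1.19 ± 0.17 (adjusted p = 4.78e-06), so the Mac1Gr1 arrays lay below those of GMP but still well above background. Top2a (-1.71), Aurka (-1.44) and Ccnb1 (-2.06) fell; Cenpf, Cenpa, Kif23 and Anln were not called (-0.73, -0.47, -0.40 and -0.23), and the phosphatase gene Cdc25b rose by 1.72, which is -0.32 on the spike-in scale.

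The regulators of the G1 phase split by gene. Cdk4 was at 3.64, 3.68 and 3.53 in GMP and -1.56, -1.28 and -1.19 in Mac1Gr1, a change of -4.96 ± 0.12 (adjusted p = 5.20e-15), and its relative Cdk6 and its partner Ccnd2 (-2.76) fell as well, while the partner Ccnd3 rose by 3.14. The inhibitors Cdkn2d and Cdkn1b rose by 3.62 and 2.02, Cdkn1a fell (-2.61), and the anti-proliferative Btg1 and Btg2 rose by 3.39 and 4.04. E2f2 was at 1.46, 1.40 and 1.43 in GMP and 6.09, 6.24 and 6.14 in Mac1Gr1, a rise of 4.72 ± 0.16 (adjusted p = 1.23e-13), although E2f1, E2f7 and E2f8 fell (-2.06, -1.37 and -1.68) and E2f3 was not called (0.15). E2f2 went against the replication genes that E2F factors are known to activate.

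Promoters of Mcm3 and Cdk1 are shown because the shares of replication and mitosis promoters with E2F and CHR letters differed. An E2F core (TTTGGCGC or TTTCCCGC, either strand) was in 11 of 42 (26.2%) replication promoters, 4 of 53 (7.55%) mitosis promoters and 1.56% of all promoters. The cell cycle homology region (CHR, TTTGAA, either strand) was in 35 of 53 (66.0%) mitosis promoters, 8 of 42 (19.0%) replication promoters and 17.9% of all, and CCAAT in 40 of 53 (75.5%), 23 of 42 (54.8%) and 37.4%. Capitals mark E2F and CCAAT letters in Mcm3, and CHR and CCAAT letters in Cdk1.
Mcm3, GRCm38.p6, chr1:20820263-20820562, minus strand: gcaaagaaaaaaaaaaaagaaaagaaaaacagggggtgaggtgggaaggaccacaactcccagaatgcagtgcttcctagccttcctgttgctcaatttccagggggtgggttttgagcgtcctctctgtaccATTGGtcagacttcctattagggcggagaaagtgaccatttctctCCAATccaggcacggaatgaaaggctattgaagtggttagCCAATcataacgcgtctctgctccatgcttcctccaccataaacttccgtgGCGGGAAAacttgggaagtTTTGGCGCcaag
Cdk1, GRCm38.p6, chr10:69352863-69353162, minus strand: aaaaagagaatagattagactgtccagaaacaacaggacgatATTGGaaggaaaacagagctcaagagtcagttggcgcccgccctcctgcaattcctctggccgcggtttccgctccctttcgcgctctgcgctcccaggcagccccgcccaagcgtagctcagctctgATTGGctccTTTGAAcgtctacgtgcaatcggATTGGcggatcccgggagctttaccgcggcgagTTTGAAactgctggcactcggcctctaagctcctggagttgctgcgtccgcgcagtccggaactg
Mcm3 holds 2 E2F cores, both after the annotated start, and 3 CCAAT boxes and Cdk1 holds 2 CHR and 3 CCAAT boxes. The E-box CACGTG, which MYC and MAX bind, was in 9 of 54 (16.7%) ribosome biogenesis promoters and 7.15% of all promoters. These shares are descriptions without a test.

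The supply of building blocks fell with replication. Nucleotide and folate enzymes fell for 31 of 35 genes with 0 higher (median -3.69), from Phgdh (-5.23) and Shmt2 (-4.54), which feed serine into one-carbon units, to the purine enzymes Ppat (-4.93) and Paics (-4.29) and the pyrimidine enzymes Cad (-4.77) and Ctps (-4.75). The salvage gene Aprt and Ctps2 were not called (0.17 and 0.14). Srm, spermidine synthase, was at 4.98, 5.20 and 4.97 in GMP and -0.88, -0.74 and -0.53 in Mac1Gr1, a change of -5.77 ± 0.18 (adjusted p = 3.61e-14), and the uridine kinase Uck2 and the folate carrier Slc19a1 were also among the 15 deepest falls of genes measured on all 6 arrays (-5.63 and -5.66). The fall of Slc19a1 rests on the probe used, as the other tested probe of this gene was not called.

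Ribosome biogenesis had the lowest median of the 58 lists after the primary granules. Of 58 ribosome biogenesis genes 55 fell (median -4.00). Ncl, nucleolin, was at 6.46, 6.56 and 6.41 in GMP and 2.72, 3.22 and 3.13 in Mac1Gr1, a change of -3.45 ± 0.16 (adjusted p = 2.58e-12), and Gar1, a protein of pseudouridine-guiding particles, at 1.88, 1.92 and 1.84 in GMP and -4.44, -3.47 and -3.59 in Mac1Gr1, a change of -5.72 ± 0.22 (adjusted p = 3.32e-13). Fibrillarin (Fbl) was 18.8-fold, Dkc1 25.2-fold and nucleophosmin (Npm1) 16.7-fold lower. Polr1a, the large subunit of RNA polymerase I, was the 1 gene that rose (1.15; -0.88 on the spike-in scale), against a change of -4.36 for Polr1b. The proteins of the cytosolic ribosome fell by less, 65 of 78 with a median of -1.65, from Rpl3 (-3.50) and Rpsa (-3.28) to genes that were not called, such as Rps27 (-0.02) and Rplp0 (-0.64). Rpl21 was called higher by the probe used (1.01), but another of its probes was called lower. Translation factors fell for 39 of 47 (median -2.16), with rises of the inhibitor Eif4ebp1 (1.06) and of Eif1 (1.20) that turned negative on the spike-in scale, and aminoacyl-tRNA synthetases for 33 of 38 (median -2.25). Of the synthetase genes 1 rose, and the summed level of that list was higher in Mac1Gr1 (10.05 to 10.30) than in GMP (9.16 to 9.48).

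**Figure D4:**
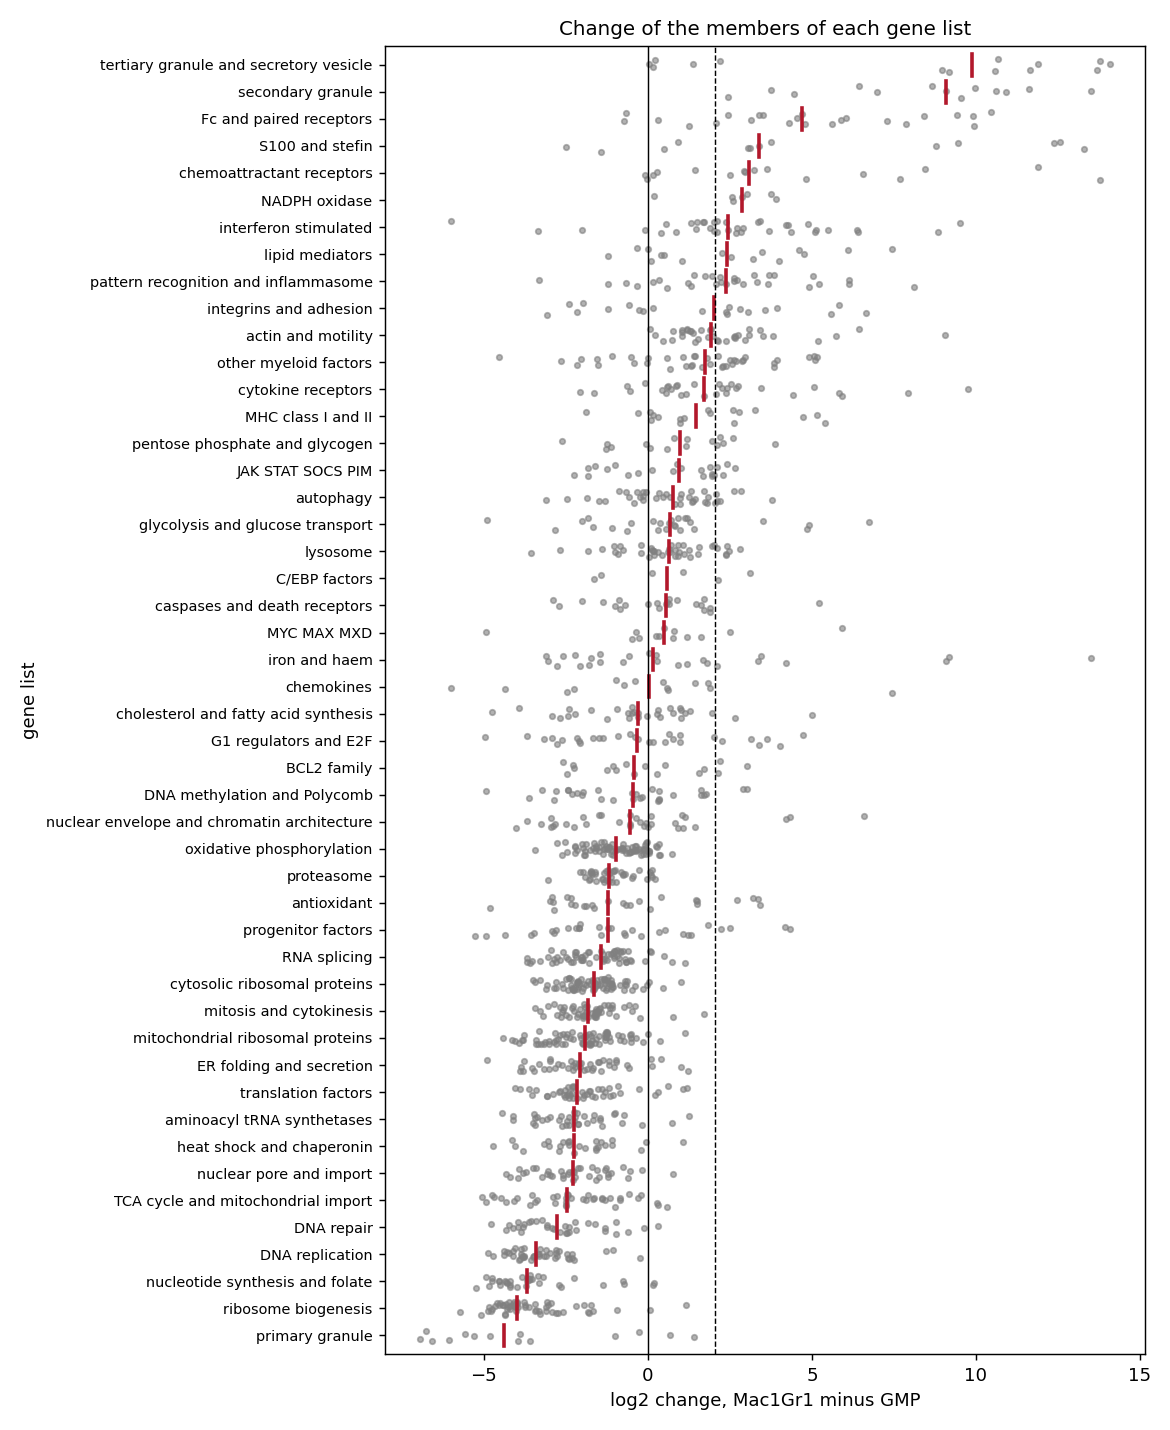
Change of each tested member (grey points) of the 48 functional gene lists in Mac1Gr1 against GMP on the log2 scale, with the median of each list as a red bar; the solid line is 0 and the dashed line at 2.03 is the change that is 0 on the spike-in scale. Late granule and receptor lists lie to the right, growth lists and primary granules to the left, and lists with medians between the lines, such as actin and motility, fall below 0 on the spike-in scale.

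Mitochondrial genes fell to differing depths. Mitochondrial ribosomal proteins fell for 62 of 75 (median -1.91) and genes of the citric acid cycle and protein import for 31 of 40 with 0 higher (median -2.45), led by C1qbp (-5.04), Idh2 (-4.94) and the chaperones Hspa9 (-4.32) and Hspd1 (-4.08). The subunits of oxidative phosphorylation fell for 37 of 77 with 0 higher and a median of -0.99, and 40 were not called. Among them cytochrome c (Cycs, -2.54) and the ATP synthase subunit Atp5g1 (-3.43) fell, while Cox4i1 (-0.68) and Ndufs4 (0.29) were not called.

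Glucose genes differed between isoforms. Of 26 genes 7 rose, 6 fell and 13 were not called, beside 26.9% higher and 30.8% lower among all genes. The median of 0.68 was -1.35 on the spike-in scale. Slc2a3, the high-affinity glucose transporter GLUT3, was at 0.06, 0.11 and -0.04 in GMP and 6.90, 6.76 and 6.71 in Mac1Gr1, a change of 6.74 ± 0.11 (adjusted p = 8.15e-17), and Slc2a1 was not called (0.71). The lactate exporter Slc16a3 rose by 4.86 and its relative Slc16a1 fell (-4.92). Pfkfb4 rose by 4.92, while Pfkl, Pfkm and Tpi1 fell (-2.02, -1.84 and -1.68) and the enzymes Gapdh, Ldha and Pgk1 were not called (0.30, 0.15 and 0.55). G6pdx and Pgd, which make the NADPH that the oxidase uses, rose by 2.59 and 2.10, and the glycogen phosphorylase of liver and leukocytes, Pygl, rose by 3.88 against a change of -2.62 for the brain form Pygb. In lipid synthesis Fasn (-4.76) and Scd2 (-3.94) fell, whereas Scd1 was at least 13.8-fold higher.

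Protein folding and export fell, and lysosome and autophagy genes were mixed. Of 45 genes of the endoplasmic reticulum 36 fell (median -2.06), with calreticulin (Calr) at -3.91 and the translocon gene Sec61a1 at -1.75, and 24 of 27 heat shock and chaperonin genes (median -2.25) and 26 of 41 proteasome genes (median -1.19) fell. The glucocorticoid-responsive co-chaperone Fkbp5 rose by the probe used (1.08; -0.95 on the spike-in scale), and another of its probes was at -0.88. Autophagy genes rose for 16 of 40, among them Optn (3.78), Wipi1 (2.83), Atg7 (2.64) and Map1lc3b (2.20), and fell for 5, among them Gabarapl1 (-3.12). Lysosome genes rose for 14 of 42, with the cathepsins Ctsd (2.39) and Ctss (2.41) and the regulator Tfeb (2.48), and fell for 5, with the hydrolases Gaa (-3.57) and Glb1 (-2.69). Both medians were positive (0.75 and 0.65) and were -1.28 and -1.38 on the spike-in scale.

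The nucleus is remodelled as neutrophils mature, and its genes moved in both directions. Padi4, which citrullinates histones and is needed for extracellular traps, was at 1.04, 1.07 and 0.87 in GMP and 7.43, 7.64 and 7.67 in Mac1Gr1, a change of 6.59 ± 0.19 (adjusted p = 1.68e-14). The lamin B receptor Lbr, which sets nuclear lobing, rose by 1.14 and lamin B1 (Lmnb1) by 1.06, both of which are falls on the spike-in scale (-0.90 and -0.97), while Lmnb2 fell (-1.97) and Lmna was not called (0.10). The linker genes Syne1 and Syne2 rose by 4.33 and 4.22. Chromatin proteins of the HMG family mostly fell, with Hmga1 at -3.25 and Hmgb1 at -2.95, but Hmgb2 and Hmgn2 were not called (0.82 and 0.11). Dnmt3b (-4.93), Dnmt1 (-2.43), its partner Uhrf1 (-3.23) and Ezh2 (-2.81) fell, and Ezh1 rose by 1.78, Cbx7 by 3.02 and the demethylase Kdm6b by 2.89. Splicing genes fell for 44 of 63 (median -1.42) and nuclear pore and import genes for 34 of 39 with 0 higher (median -2.27).

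Survival genes had no common direction. Of 17 BCL2 family genes 5 rose and 6 fell, near the shares of all genes (26.9% higher and 30.8% lower). Of 23 genes for caspases and death receptors 7 rose and 4 fell. Mcl1, on which neutrophil survival rests, was at 4.46, 4.33 and 4.06 in GMP and 6.42, 6.41 and 6.46 in Mac1Gr1, a change of 2.15 ± 0.12 (adjusted p = 3.19e-11), and Bcl2l1 and Bcl2a1b rose by 2.21 and 3.01, while Bcl2 (-2.28) and the effector Bax (-2.26) fell. Bak1 was not called (-0.68). Fas, the death receptor, was at -2.07, -2.49 and -2.18 in GMP and 2.98, 3.04 and 2.92 in Mac1Gr1, a change of 5.23 ± 0.15 (adjusted p = 2.25e-14); Casp9 rose by 1.89, which is under the spike-in shift, and Casp8 was not called (-0.87). The necroptosis genes Ripk3 and Mlkl fell (-2.71 and -2.89).

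Of 26 iron and haem genes 10 rose, 10 fell and 6 were not called (median 0.15, but -1.89 on the spike-in scale). The transferrin receptor Tfrc (-3.05) and the haem enzymes Alad and Cpox (-3.09 and -2.78) fell, while the phagosomal transporter Slc11a1 rose by 9.18 and ferritin heavy chain Fth1 by 1.79. The iron exporter Slc40a1 and haem oxygenase Hmox1 rose by 4.21 and 3.35, and both are also macrophage markers. Of the antioxidant genes 14 of 27 fell and 7 rose (median -1.20): Prdx1, Prdx2, Prdx3 and Prdx4 fell (-2.93, -2.89, -2.87 and -2.24), and Prdx5 rose by 2.72.

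Set beside the step before it, from PreGM to GMP, the step to Mac1Gr1 had other signs for Elane and Prtn3. The 2 comparisons share the GMP arrays, so their values are given side by side without a test. Elane had a change of 4.11 from PreGM to GMP and -6.96 from GMP to Mac1Gr1, Mpo -0.08 and -3.97, and Prtn3 1.98 and -6.77. The secondary granule list had a median of 2.47 and then 9.08, the tertiary list 0.36 and 9.88, DNA replication 0.20 and -3.41, and ribosome biogenesis 0.16 and -4.00. The PreGM arrays differed in the median level of the secondary granule list (-3.53, -3.64 and -0.65). The last of them was near the GMP arrays (-0.49, -0.59 and -0.63). Cxcl10 had changes of 2.54 and -6.02, and Myc had changes of -0.59 and -4.93.

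The end of the erythroid path, from CFUe to Ter119 cells, shares no array with this step, and the difference between the 2 changes was tested for 12 genes. Mxd1 rose and Myc fell at both ends; the change of Myc was lower in the myeloid step by -1.23 ± 0.43 (SE; limma adjusted p = 0.0236). Tfrc fell in the myeloid step (-3.05) and had a change of 0.39 in the erythroid step, a difference of -3.45 ± 0.25 (adjusted p = 7.05e-09). The changes of Mki67 and Mcm2 were lower in the myeloid step by -1.87 ± 0.23 (adjusted p = 3.97e-06) and -1.93 ± 0.22 (adjusted p = 2.06e-06), with 1 CFUe array left out of the Mcm2 fit as an outlier spot, and that of Ccnd3 was higher by 1.55 ± 0.18 (adjusted p = 1.93e-06). Mki67 had a change of -1.19 in the myeloid and 0.68 in the erythroid step, whereas Mcm2 fell in both (-4.11 and -2.18). For Ncl, Fbl and Lbr the differences of 0.36 ± 0.22, -0.54 ± 0.25 and 0.27 ± 0.20 did not pass the threshold (adjusted p = 0.184, 0.0759 and 0.273). Ltf stood at 9.07 ± 0.04 (SD, n = 3) in the Ter119 arrays, beside 9.75 ± 0.05 in Mac1Gr1, so the Ter119 fraction carried late granule transcripts too, and their part in these differences was not tested.

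Among all genes measured on all 6 arrays, the 15 largest rises were mostly members of the lists above. Outside them stood Plbd1, a granule phospholipase-like protein, which rose by 10.91, the ganglioside synthase St3gal5 (10.06), the protease Asprv1 (10.06) and 6430548M08Rik (10.54). Among the 15 deepest falls were Ppic (-7.10), a cyclophilin, Serpinf1 (-6.17), Dio2 (-5.94), the bicarbonate transporter Slc4a8 (-5.71, with another of its probes at 0.59) and Nme4 (-5.68). Of the genes gained from background, Scrg1 was at least 3633-fold, Cstdc4, a stefin relative, at least 3836-fold, Chil5, a chitinase-like gene, at least 547-fold and Prok2, prokineticin 2, at least 385-fold higher. Of the genes lost to background, Dmkn was at least 69.9-fold, granzyme B (Gzmb) at least 65.6-fold, the cytokine gene Tslp at least 38.8-fold, the tRNA methyltransferase Mettl1 at least 30.6-fold and the coagulation inhibitor Tfpi at least 29.9-fold lower.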

How the data were processed

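Sorted bone marrow fractions were profiled on 1-colour Agilent mouse arrays, with a spike-in mix labelled together with the total RNA. The deposited files hold the spot intensity of each array as Agilent Feature Extraction 10.7.1.1 gave it, background-subtracted and not scaled between arrays. A table of log2 values deposited by the authors, normalised between arrays by a method not given in the sources used here, served as an alternative. Groups came from the labels.

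Control spots and flagged outliers were removed, spots of 1 probe averaged, and the log2 75th percentile of each array subtracted from its log2 intensities. The 29532 probes that exceeded background clearly throughout the 3 arrays of any of the 7 fractions entered a single limma fit (limma 3.58.1, R 4.3.3, two-sided) of 21 arrays, in which each fraction had its mean, with Benjamini-Hochberg adjustment over these probes. Calls needed at least 2-fold and an adjusted p under 0.05. Where no array of a fraction was well above background, the bound takes, on each array, the higher of the lowest signal well above background and the signal of the probe. Tables and figures were made in Python 3.11.15.

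Through their accessions and a RefSeq gene table (GRCm38.p6), 64.8% of 41174 probes had a symbol. A gene is read from whichever of its probes was brightest on average across all 21 arrays, and 58 of 5094 genes with several probes had probes called in opposite directions. Promoters are those of RefSeq on GRCm38.p6. The 58 lists hold 1728 entries, of which 1671 were tested. The comparison, the member genes and the lists were chosen with earlier results of these data known. Genes named in the text are list members, chosen by their role, the largest changes each way or the lack of a call, plus the 15 largest rises and falls on probes measured on all 6 arrays and the 10 largest bounds each way. The lists are described without a test, and some of their genes are not reported here by name.

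Of 200 probes given a log2 change of 2 in simulated Mac1Gr1 and GMP arrays, 180 (90%) were recovered, and 5 unchanged probes were called. The changed probes were drawn from those well above background on all 3 GMP arrays. All other probes were left unchanged between the 2 fractions, and the noise was independent. The real arrays hold far more changed probes, dim genes and a scaling shift, so these rates do not carry over to them. Precision is limited by the 3 arrays a fraction, with a median residual SD of 0.262. Alternatives changed the scaling, the background correction, the dim filter, the block, the values, the probe and the arrays used.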

Additional observations from a re-analysis of the deposited data

Results flagged for a closer look

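The change at the end of the myeloid path (GMP to Mac1Gr1) differed from that at the end of the erythroid path (CFUe to Ter119) for 9 of the 12 genes compared, by the limma test of the difference itself adjusted over all probes. The share of all probes that pass this test is not given here, and the genes were chosen with earlier results known. The count is therefore not a result particular to these genes. The transferrin receptor gene Tfrc differed most (-3.45), followed by the helicase gene Mcm2 (-1.93, with 1 CFUe array left out as an outlier spot), the proliferation antigen gene Mki67 (-1.87), Myc (-1.23), the mitotic kinase gene Cdk1 (-1.16) and the cell cycle inhibitor gene Cdkn1b (-0.65), all lower in the myeloid step. Ccnd3 (1.55), lamin B1 (Lmnb1, 1.23) and Mxd1 (0.70) were higher in the myeloid step. Scaled to the spike-in, the differences of Mxd1 (0.04; adjusted p = 0.954), Lmnb1 (0.58; adjusted p = 0.369) and Ccnd3 (0.90; adjusted p = 0.0703) no longer passed the threshold, and that of fibrillarin (Fbl) did (-1.19; adjusted p = 0.0142). The Ter119 arrays carried the late granule gene Ltf at 9.07, and its part in these differences was not tested.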

How the results depend on the processing

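Of 8589 probes called higher and 8164 called lower, 1 probe per gene left 3852 and 4403, spike-in scaling gave 1895 and 20673, and normexp background gave 5310 lower. Without one of the 6 arrays, 7937 to 9442 were higher and 7990 to 8242 lower. The other alternatives stayed within 1.5 times of both counts, and with no minimum fold 11652 were higher and 10597 lower. With the replicate number as a block (replicate block), 8574 were higher and 8166 lower and none of the 335 genes named changed its call. Same-numbered Mac1Gr1 and GMP arrays had deviations from their group means that correlated at -0.10, 0.22 and 0.14. Arrays with different numbers correlated at -0.23 to 0.11. With 3 arrays a fraction these values cannot settle whether same-numbered samples were paired.

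Spike-in scaling, a constant for each array, turned the median of these lists below 0: chemokines -1.99, integrins and adhesion -0.013, actin and motility -0.095, cytokine receptors -0.31, JAK STAT SOCS PIM -1.08, C/EBP factors -1.43, other myeloid factors -0.30, MYC MAX MXD -1.54, glycolysis and glucose transport -1.35, pentose phosphate and glycogen -1.05, autophagy -1.28, lysosome -1.38, caspases and death receptors -1.48, MHC class I and II -0.56, iron and haem -1.89, sorting antigens -1.04, monocyte markers -1.15, eosinophil markers -0.87, T and NK cell markers -0.98, erythroid markers -0.44 and megakaryocyte markers -1.42. It gave these changes below 0 for genes with positive changes in the report: Aprt -1.86, Arpc1b -0.73, Arpc2 -0.76, Arpc3 -0.85, Arpc4 -1.25, B2m -1.05, Casp1 -1.70, Casp9 -0.15, Cd14 -1.87, Cdc25b -0.32, Cdkn1b -0.018, Csf1r -1.15, Ctps2 -1.89, Ctsb -1.99, Cx3cr1 -1.74, E2f3 -1.88, Eif1 -0.83, Eif4ebp1 -0.97, Erg -0.20, Ezh1 -0.26, Fcgr3 -0.79, Fcnb -1.83, Fkbp5 -0.95, Fth1 -0.24, Gapdh -1.73, H2-K1 -1.71, Hmgb2 -1.22, Hmgn2 -1.93, Igsf6 -0.63, Itga4 -1.89, Klf2 -1.45, Klf4 -2.02, Lbr -0.90, Ldha -1.89, Lmna -1.94, Lmnb1 -0.97, Ly6c2 -1.04, Mlx -1.78, Mxi1 -0.40, Ndufs4 -1.75, Pgk1 -1.49, Polr1a -0.88, Rac1 -1.86, Rpl21 -1.02, Serpinb1a -1.35, Slc2a1 -1.32, Spi1 -0.14, Stat3 -0.088, Stat5b -0.35, Tlr1 -0.73, Tlr2 -0.63, Tlr9 -0.30 and Xpc -1.72. The chemokine median was also negative after quantile scaling (-0.13), with the slide as a fixed block (-0.23), in the authors' table (-0.16) and without Mac1Gr1 replicate 3 (-0.024, against up to 0.167 without another array). Normexp background turned the BCL2 family (0.014) and the mast cell and basophil markers (0.028), and the authors' table turned iron and haem (-0.0097). Other probes of Rpl21 (-3.00), Fkbp5 (-0.88) and Slc4a8 (0.59) had the opposite sign. The cause of these turns beyond the scaling was not tested. Elsewhere 0 of the 335 genes turned, and at most 12 lost the call, with the slide as a fixed block. On the spike-in scale 227 of the 335 genes kept their call or lack of one, and 53 turned. A further 37 lost the call there, and 18 gained one of the same sign. Genes called on neither scale, such as Ptgs1, are not in the list of turned genes even where their sign changed.

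Of alternatives chosen after seeing the data, the myeloid and erythroid steps differed for 9 of 12 genes after quantile scaling or with the replicate block, for 7 on the spike-in scale and for 6 to 9 without 1 of 12 arrays, with 6 without CFUe replicate 1. Signal over background limits the dim genes: where no array of a fraction was well above it, the level there is a bound.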
